A study of Mus musculus with 12 samples.

Results

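The 10 genes described here encode receptors with which macrophages bind particles, lipids, sugars and antibody: the scavenger receptors Msr1, Marco and Cd36, the C-type lectins Clec4e, Clec7a and Mrc1, and the Fc gamma receptors Fcgr1, Fcgr2b, Fcgr3 and Fcgr4. They were taken by symbol from the gene count table, and all 10 of them were found among its 38215 genes. The libraries came from RAW264.7, an established mouse macrophage line from BALB/c mice, in which the splicing factor SF3a1 was inhibited by siRNA and the Toll-like receptor ligand LPS was then given or not. Cells given control (non-targeting) siRNA or SF3a1 siRNA were each left without LPS or exposed to it, which makes 4 groups, each with 3 biological replicates. The siRNA was given for 24 hours before LPS, which was used at 20 ng/ml for 4 hours, and every group, controls included, was transfected with an siRNA. As a model each group is limited to 1 cell line at 1 dose and 1 time of LPS, and the siRNA lowered Sf3a1 without removing it.

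Polyadenylated RNA was sequenced, and 12746019 to 41091887 reads per library were counted on genes. Of all genes, 14983 had enough counts to be tested and 9577 had 0 counts in every library. Of the 10 receptor genes, 9 were tested. Marco was not, with 2 reads in all 12 libraries together. Levels are given as counts scaled to library size (CPM), and where genes are compared with each other as RPKM, which also divides by the length of the gene's merged exons. A gene was called changed at an adjusted p of at most 0.1 in edgeR's quasi-likelihood test, adjusted over all genes tested. The comparisons with LPS share the control groups with the comparisons of the siRNAs, so a count in one is not independent of a count in another.

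Scavenger receptors bind modified lipoproteins, bacterial surfaces and dying cells and carry them into the cell. C-type lectin receptors recognise sugars of fungi and mycobacteria, and several of them signal through immunoreceptor tyrosine-based activation motifs (ITAM), either of their own or on the shared chain encoded by Fcer1g. Fc gamma receptors bind IgG on opsonised particles: Fcgr1, Fcgr3 and Fcgr4 are activating and pair with the Fcer1g chain, whereas Fcgr2b is inhibitory and recruits the phosphatase encoded by Inpp5d. Src family kinases and Syk carry the activating signal onward.

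Sf3a1 was measured first, as the check of the labels. Its level was 173, 216 and 185 CPM in replicates 1, 2 and 3 with control siRNA and 27.1, 27.5 and 32.1 CPM with SF3a1 siRNA, both without LPS. With LPS it was 150, 194 and 157 CPM against 30.3, 26.7 and 45 CPM. The groups did not overlap, and Sf3a1 stood at 15.1% of control without LPS and at 20.4% with LPS. Its log2 fold changes were -2.73 (SE 0.204, adjusted p = 1.14e-05) and -2.3 (SE 0.2, adjusted p = 1.47e-05).

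The cells carried most markers of the labelled type. All 9 macrophage markers on a list were tested, and their summed level was 9670 to 16300 CPM per library, led by the lysozyme gene Lyz2. Of these markers 7 averaged at least 1 CPM. C1qa averaged at most 0.612 CPM in any group, and Mertk ran from 0.126 CPM (control siRNA without LPS) to 1.56 CPM (SF3a1 siRNA with LPS). Lymphocyte markers (6 genes) summed to at most 0.423 CPM and fibroblast or epithelial markers (5 genes) to at most 0.28 CPM in any library, and none of these genes passed the filter. One library stood apart in its reads outside genes: replicate 1 of SF3a1 siRNA without LPS had 27.2% of its reads there, against 17.8 to 21.6% in the other 11. The replicate 1 libraries were each sequenced in 2 runs and the others in 1.

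Fcgr1, which encodes the high-affinity IgG receptor CD64, and Fcgr4, an activating receptor for IgG2a and IgG2b, had the largest differences between the siRNAs in the presence of LPS among the 9 tested receptor genes. With control siRNA both rose with LPS, and with SF3a1 siRNA neither passed the test. Fcgr1 (chr3:96282909-96293969, minus strand, GRCm38) measured 51.2, 73.7 and 67.4 CPM with control siRNA without LPS and 564, 382 and 420 CPM with LPS. With SF3a1 siRNA it measured 37.6, 56.4 and 54.1 CPM without LPS and 52.5, 39.8 and 56.1 CPM with LPS. Every library of control siRNA with LPS lay far above the other 9, among which the SF3a1 siRNA groups overlapped. The LPS change was thus 7.11-fold with control siRNA (log2 2.83, SE 0.227, adjusted p = 1.54e-06). With SF3a1 siRNA the level with LPS was 100% of that without (95% interval of the log2 change -0.46 to 0.47, adjusted p = 0.995). With LPS, SF3a1 siRNA left Fcgr1 at 10.9% of control (log2 -3.2, SE 0.231, adjusted p = 6.14e-06), whereas without LPS the value of 77% was not called (log2 -0.38, adjusted p = 0.224). The interaction, which is how far the SF3a1 siRNA effect with LPS departs from that without, was itself called (log2 -2.83, SE 0.307, adjusted p = 0.00149).

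Fcgr4 (chr1:171018920-171029761, plus strand) measured 1.86, 1.47 and 3.15 CPM with control siRNA without LPS and 36.4, 31.6 and 50.6 CPM with LPS, an 18.4-fold change (log2 4.2, SE 0.388, adjusted p = 5.32e-06). With SF3a1 siRNA it measured 6.01, 2.95 and 7.96 CPM without LPS and 8.44, 5.86 and 7.98 CPM with LPS, and these groups overlapped (log2 0.41, 95% interval -0.35 to 1.17, adjusted p = 0.63). The SF3a1 siRNA effect on Fcgr4 had opposite signs without and with LPS: without LPS the level was 2.61-fold higher than control (log2 1.38, SE 0.366, adjusted p = 0.0141), although replicate 2, at 2.95 CPM, lay inside the control range. With LPS it was 18.8% of control (log2 -2.41, SE 0.354, adjusted p = 0.000338). The interaction was log2 -3.79 (SE 0.507, adjusted p = 0.00346). Fcgr4 had 188 reads in the 3 libraries of control siRNA without LPS, so its low levels are the least precise of the Fc gamma receptors.

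**Figure D1:**
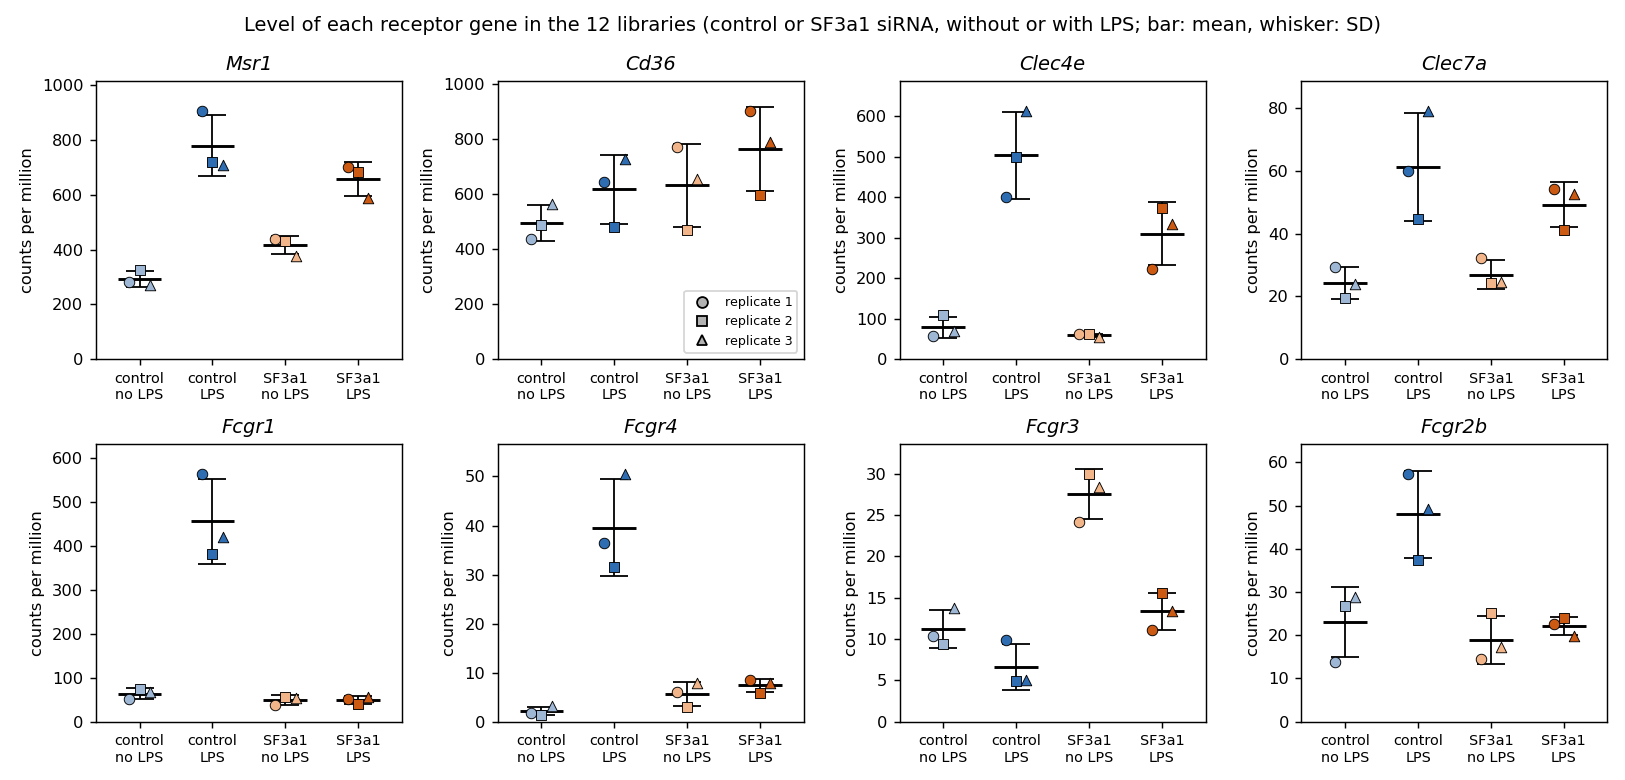
Level of 8 receptor genes in CPM (each axis starts at 0) in the 4 groups, control or SF3a1 siRNA without or with LPS; points are the 3 replicates, bars means and whiskers SD. Fcgr1 was at 382 to 564 CPM with control siRNA and LPS and at 73.7 CPM or less in every other library, while Clec4e rose with LPS under both siRNAs.

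The stretches around the annotated starts of Fcgr1, Fcgr4 and Clec4e are shown because the first 2 had the largest interactions among the 9 tested receptor genes and Clec4e the largest LPS change with SF3a1 siRNA. Each window, from RefSeq on GRCm38.p6, runs from 250 bases before to 50 bases after the start, written 5′ to 3′ on the gene's strand, and capitals mark matches on either strand to a GAS element (TTCNNNGAA), an ISRE-like pair (GAAANNGAAA), the PU.1 core GAGGAA or the NF-kB motif. In these 3 windows no match overlapped another. Fcgr1 is read from chr3:96293920-96294219 (minus strand), Fcgr4 from chr1:171018676-171018975 (plus strand) and Clec4e from chr6:123289822-123290121 (minus strand).
Fcgr1: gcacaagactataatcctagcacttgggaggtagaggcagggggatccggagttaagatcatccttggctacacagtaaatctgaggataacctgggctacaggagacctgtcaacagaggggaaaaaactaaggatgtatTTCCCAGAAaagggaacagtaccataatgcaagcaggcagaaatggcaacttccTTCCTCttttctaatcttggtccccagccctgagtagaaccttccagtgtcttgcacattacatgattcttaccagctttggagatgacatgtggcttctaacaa
Fcgr4: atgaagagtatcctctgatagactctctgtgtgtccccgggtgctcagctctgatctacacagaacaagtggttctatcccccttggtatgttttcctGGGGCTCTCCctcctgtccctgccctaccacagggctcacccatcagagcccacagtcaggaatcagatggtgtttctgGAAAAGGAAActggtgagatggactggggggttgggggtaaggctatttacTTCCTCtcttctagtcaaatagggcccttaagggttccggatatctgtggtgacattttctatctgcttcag
Clec4e: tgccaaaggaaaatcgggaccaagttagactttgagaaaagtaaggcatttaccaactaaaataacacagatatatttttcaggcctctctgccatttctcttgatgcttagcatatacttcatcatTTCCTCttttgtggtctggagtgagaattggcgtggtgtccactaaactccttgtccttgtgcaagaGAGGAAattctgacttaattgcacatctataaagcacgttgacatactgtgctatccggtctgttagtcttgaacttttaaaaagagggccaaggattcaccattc

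Counted from the start, Fcgr1 held a GAS match at -109 and a PU.1 match at -55. Fcgr4 held an NF-kB match at -152, the ISRE pair at -73 and a PU.1 match at -22. Clec4e held PU.1 matches at -123 and -56 and no other. The Fcgr2b window held 0 matches and that of Mrc1 3 PU.1 matches. In the main fit the LPS changes of those 2 genes were called with control siRNA alone, but their interactions were not called (log2 -0.82 and -0.15). With the replicate block, that of Mrc1 was also called with SF3a1 siRNA. Among the 9 receptor genes with a window (11 windows, Msr1 having none), the GAS motif occurred in 1, the ISRE pair in 1, NF-kB in 2 and PU.1 in 7, while AP-1 (TGANTCA) and CRE (TGACGTCA) occurred in 0. Of all 32851 promoter windows of this length, 8.3% held GAS, 3.44% the ISRE pair, 28.3% PU.1, 8.46% NF-kB, 7.81% AP-1 and 1.79% CRE. A match in letters is a description of the window and not a bound site.

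Across the group, LPS with control siRNA raised 7 of the 9 tested receptor genes and lowered 1, against 13.8% and 18.3% of all tested genes called higher and lower. Of these 7, Mrc1 passed the filter through its LPS groups. The median log2 change of the 9 was 1.41, and that of all tested genes was -0.02. With SF3a1 siRNA, LPS raised 3 and lowered 1 of the 9, against 6.6% and 4.06% of all tested genes, with a median of 0.41 (0.01 for all genes). The fitted interaction was below 0 in all 9, as it was in 46% of all tested genes, but for Cd36, Mrc1 and Fcgr3 its sign changed in at least 1 of the fits without 1 library. The interaction was called lower for 3 of the 9 (Fcgr1, Fcgr4 and Msr1) and higher for 0, against 1.94% and 1.54% of all tested genes.

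SF3a1 siRNA without LPS was followed by higher levels of 3 receptor genes, Msr1, Fcgr3 and Fcgr4, and lower levels of 0, where 13.7% and 20.1% of all tested genes were called higher and lower. With LPS, 1 receptor gene (Fcgr3) was higher and 4 (Clec4e, Fcgr1, Fcgr2b and Fcgr4) were lower, where 18.4% and 20.4% of all tested genes were called. The medians of the 9 were 0.15 without LPS and -0.32 with LPS, beside -0.02 and -0.04 for all tested genes. In this bulk RNA, fewer cells expressing a gene and less RNA per cell cannot be told apart.

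**Figure D2:**
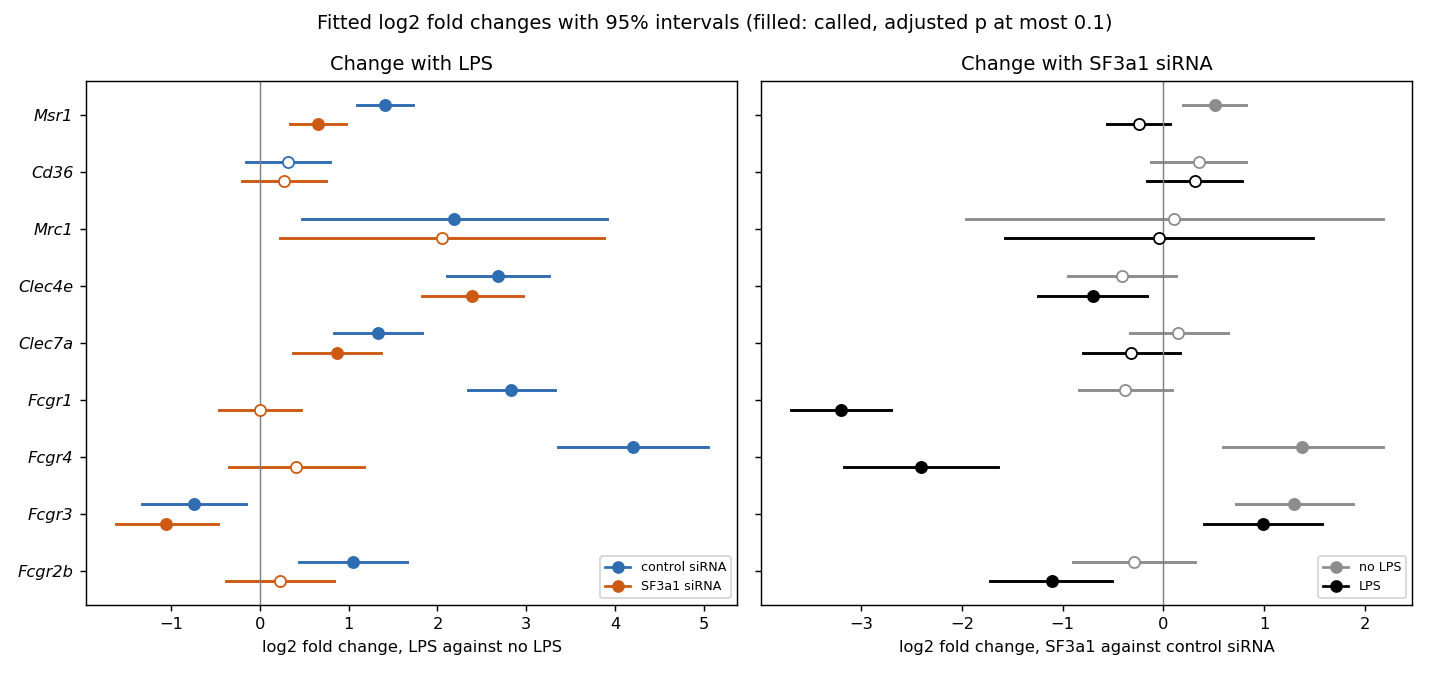
Fitted log2 fold changes of the 9 tested receptor genes (points) with 95% intervals (lines), for LPS against no LPS under each siRNA (left) and SF3a1 against control siRNA without and with LPS (right); filled points were called at an adjusted p of at most 0.1. The LPS changes of Fcgr1 and Fcgr4 were 2.83 and 4.2 with control siRNA and 0 and 0.41, neither called, with SF3a1 siRNA, while Fcgr3 was called lower with LPS under both siRNAs and higher with SF3a1 siRNA in both conditions.

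Of the 3 scavenger receptor members, Msr1, which encodes the class A receptor for modified lipoproteins and bacterial ligands, was the 1 with called changes. Msr1 (chr8:39581685-39642673, minus strand) measured 281, 327 and 270 CPM with control siRNA and 907, 719 and 710 CPM after LPS. With SF3a1 siRNA the values were 440, 431 and 378 CPM without LPS and 701, 684 and 588 CPM with LPS. Neither pair of groups overlapped, and the rise was 2.66-fold with control siRNA (log2 1.41, SE 0.147, adjusted p = 1.48e-05) and 1.58-fold with SF3a1 siRNA (log2 0.66, SE 0.145, adjusted p = 0.0139). Without LPS, Msr1 was 1.42-fold higher with SF3a1 siRNA than with control (log2 0.51, SE 0.145, adjusted p = 0.0204). With LPS it was at 84.5% of control, which was not called (log2 -0.24, adjusted p = 0.232) but was with the replicate number as a block (adjusted p = 0.0981). The interaction was small and near the threshold (log2 -0.75, SE 0.205, adjusted p = 0.09), and it was no longer called in 11 of the 12 fits that left out 1 library, with adjusted p of 0.105 to 0.203.

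Cd36, the class B scavenger receptor that also takes up long-chain fatty acids, was the most abundant receptor per length in 3 of the 4 groups and was called in none of the comparisons. Cd36 (chr5:17781690-17888801, minus strand) averaged 495 ± 65 CPM with control siRNA and 617 ± 125 CPM after LPS, and 631 ± 151 and 763 ± 154 CPM with SF3a1 siRNA (SD, n = 3 each). In each of the 4 comparisons the groups overlapped. The interval of the LPS change with control siRNA was -0.15 to 0.79 on the log2 scale, and that of SF3a1 siRNA without LPS -0.12 to 0.82. Marco (chr1:120474538-120505024, minus strand), a class A receptor with a collagen-like stalk, had 1 read in 2 libraries and 0 in the other 10. The 0 reads of the SF3a1 siRNA groups allow up to 0.051 CPM without LPS and 0.0426 CPM with LPS, taking 3 counts over the 3 libraries as the limit for counting error.

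Of the lectin receptors, Clec4e and Clec7a rose with LPS under both siRNAs. Clec4e encodes Mincle, which binds the mycobacterial cord factor and signals through the Fcer1g chain. Clec4e (chr6:123281789-123289870, minus strand) measured 57.4, 108 and 69.8 CPM with control siRNA and 399, 498 and 613 CPM after LPS, and with SF3a1 siRNA 60.8, 61.5 and 54.5 CPM without LPS and 223, 372 and 334 CPM with LPS. The rise was 6.43-fold with control siRNA (log2 2.68, SE 0.263, adjusted p = 8.68e-06) and 5.25-fold with SF3a1 siRNA (log2 2.39, SE 0.26, adjusted p = 6.63e-05), and the interaction was not called (log2 -0.29, 95% interval -1.05 to 0.47, adjusted p = 0.868). With LPS, every library of SF3a1 siRNA lay below every library of control siRNA, at 61.5% of control (log2 -0.7, SE 0.248, adjusted p = 0.0479). That call was lost without replicate 3 of control siRNA with LPS (adjusted p = 0.168) or without replicate 1 of SF3a1 siRNA with LPS (adjusted p = 0.161).

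Clec7a encodes Dectin-1, the receptor for fungal beta-glucan. Clec7a (chr6:129461591-129472779, minus strand) measured 29.5, 19.4 and 23.9 CPM with control siRNA and 59.9, 44.8 and 79.2 CPM after LPS, a 2.52-fold rise (log2 1.33, SE 0.227, adjusted p = 0.000771). With SF3a1 siRNA it went from 32.2, 24.2 and 24.5 CPM to 54.1, 41.1 and 52.6 CPM, a 1.82-fold rise (log2 0.87, SE 0.226, adjusted p = 0.0352). Here too LPS separated the groups under each siRNA. The siRNAs did not separate them, and the SF3a1 siRNA change was log2 0.15 without LPS and -0.32 with LPS, neither called (95% intervals -0.34 to 0.64 and -0.8 to 0.17). The LPS call with SF3a1 siRNA was lost without replicate 2 or without replicate 3 of SF3a1 siRNA without LPS (adjusted p = 0.14 and 0.135).

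Mrc1, the mannose receptor CD206 and a common marker of alternatively activated macrophages, was close to the limit of detection. Mrc1 (chr2:14229392-14332057, plus strand) had 12, 4 and 0 reads with control siRNA, 31, 12 and 10 after LPS, 1, 8 and 1 with SF3a1 siRNA and 16, 14 and 20 with SF3a1 siRNA and LPS. Its mean stayed below 1 CPM in every group. The LPS change was called with control siRNA (log2 2.19, SE 0.79, adjusted p = 0.0591) and not with SF3a1 siRNA (log2 2.05, SE 0.84, adjusted p = 0.195). The latter was called with the replicate block (adjusted p = 0.0802), with no filter (adjusted p = 0.0932) and without replicate 2 of SF3a1 siRNA without LPS (log2 3.79, adjusted p = 0.0646). Mrc1 passed the filter through its LPS groups, at 0.484 to 0.962 CPM, against at most 0.446 CPM without LPS. Its LPS rise is therefore not independent of that filter. The call with control siRNA was lost in 4 of the 12 fits without 1 library.

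The other 2 Fc gamma receptor genes lie beside Fcgr4 on chromosome 1. Fcgr2b (chr1:170958617-170976547, minus strand), the inhibitory receptor, measured 13.9, 26.7 and 28.9 CPM with control siRNA and 57.4, 37.3 and 49.2 CPM after LPS, a 2.08-fold rise (log2 1.05, SE 0.28, adjusted p = 0.0136). With SF3a1 siRNA it measured 14.4, 25.2 and 17.2 CPM without LPS and 22.6, 24 and 19.9 CPM with LPS, which overlapped (log2 0.23, adjusted p = 0.775). With LPS, SF3a1 siRNA left Fcgr2b at 46.3% of control, with no overlap (log2 -1.11, SE 0.281, adjusted p = 0.00946). The interaction of log2 -0.82 was not called (95% interval -1.68 to 0.03, adjusted p = 0.407), so the LPS changes of Fcgr2b under the 2 siRNAs were not shown to differ.

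Fcgr3, the low-affinity activating receptor CD16, was the 1 member called lower with LPS, under either siRNA, and the 1 called higher with SF3a1 siRNA in the presence of LPS. Fcgr3 (chr1:171051174-171064935, minus strand) measured 10.4, 9.38 and 13.8 CPM with control siRNA and 9.84, 4.93 and 5.05 CPM after LPS. With SF3a1 siRNA it measured 24.2, 30 and 28.4 CPM without LPS and 11.1, 15.5 and 13.4 CPM with LPS. Every library with SF3a1 siRNA lay above every library with control siRNA at the same LPS exposure, by 2.46-fold without LPS (log2 1.3, SE 0.267, adjusted p = 0.00336) and 1.98-fold with LPS (log2 0.99, SE 0.271, adjusted p = 0.0148). LPS lowered it by 1.05 on the log2 scale with SF3a1 siRNA (SE 0.266, adjusted p = 0.031), with no overlap. With control siRNA it fell by 0.74 (SE 0.27, adjusted p = 0.0624), where replicate 1 with LPS lay inside the range without LPS. The latter call was lost in 4 of the 12 fits without 1 library (adjusted p of 0.104 to 0.239) and with only the 2 groups in the fit (adjusted p = 0.173), and the former without replicate 2 of SF3a1 siRNA without LPS (adjusted p = 0.109).

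Fcgr2b and Fcgr3 share sequence. Of the 60-base stretches of the Fcgr3 transcripts, 7.85% also occurred in Fcgr2b, and 6.41% of those of Fcgr2b occurred in another gene (2.38% in Fcgr3), against 0 for the other 8 members. At 30 bases, the shortest read length that was mapped, 13.7% of the Fcgr3 stretches occurred in Fcgr2b and 8.31% of those of Fcgr2b in another gene, and the other 8 members had 0 to 1.47%, the highest being Fcgr4. Only uniquely mapping reads were counted, so reads lying wholly in the shared stretches would be left out of both genes. In GENCODE vM21, exons of Fcgr2b also overlap the gene Gm38204 on the other strand. Whether the annotation used for counting held Gm38204 was not checked. If it did and strand was not used, reads lying wholly in that overlap would be ambiguous and counted for neither gene.

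Corrected for length, the mix of the 4 Fc gamma receptor mRNAs differed between the groups. Their summed level was 36.9 ± 6.37 RPKM with control siRNA and 219 ± 40.8 RPKM after LPS, but 42.7 ± 6.1 RPKM with SF3a1 siRNA and 36.6 ± 3.1 RPKM with SF3a1 siRNA and LPS (SD, n = 3 each). Every library of control siRNA with LPS (181 to 263 RPKM) exceeded every other library (at most 46.6 RPKM). Fcgr1 made up 67.1% ± 4.58 of the sum with control siRNA and 79.9% ± 3.72 after LPS, but 44.4% ± 3.49 and 52.1% ± 4.89 with SF3a1 siRNA. Fcgr3 made up 17.7% ± 3.54 and 1.7% ± 0.414 with control siRNA, without and with LPS, and 37.3% ± 1.93 and 21.3% ± 5.11 with SF3a1 siRNA. The inhibitory Fcgr2b made up 10.6% ± 2.17 of the sum without and 3.76% ± 0.215 with LPS with control siRNA, and stood at 7.61% ± 1.67 and 10.6% ± 1.89 with SF3a1 siRNA. These shares are given as a description, since 3 libraries against 3 were not tested on this scale. They rest on the length of all annotated exons, 5790 bases for Fcgr2b and 1256 for Fcgr4, not on the transcripts present. That annotation splits Fcgr1 and Fcgr2b into 9 and 19 exon pieces, against 6 and 18 in the counts. The shares of a gene are thus set beside each other between groups, not read as proportions of mRNA molecules.

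**Figure D3:**
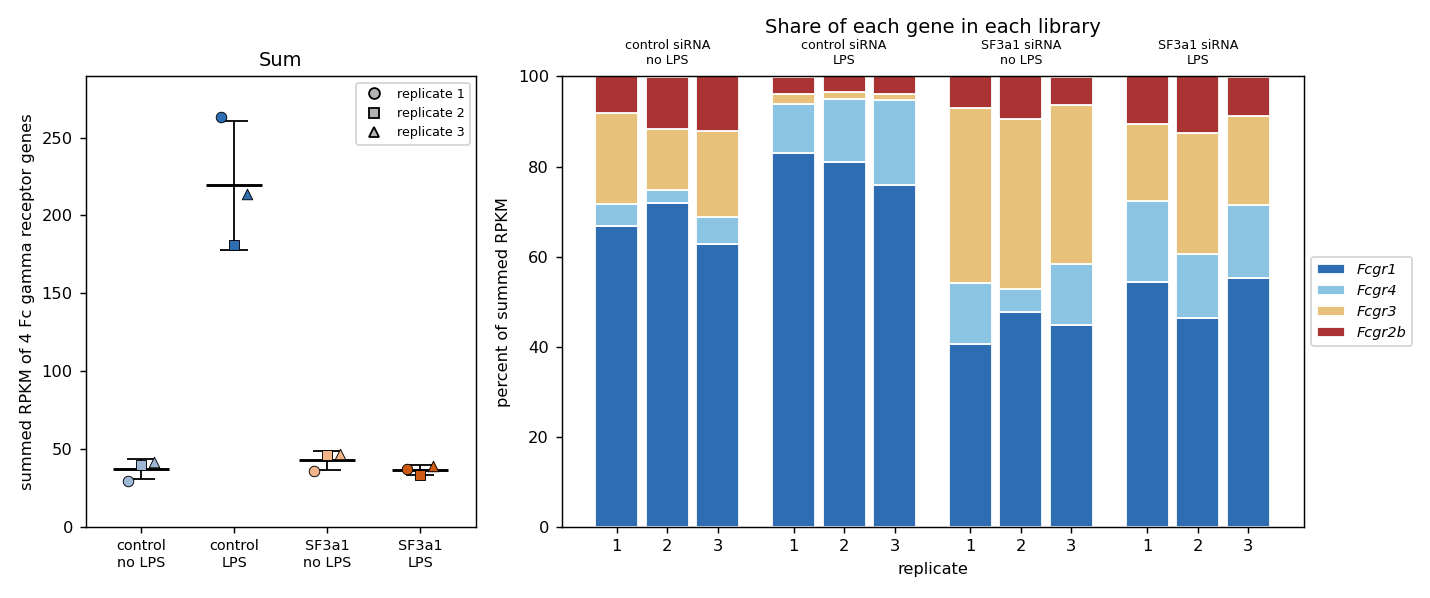
Left, summed RPKM of Fcgr1, Fcgr2b, Fcgr3 and Fcgr4 in each library (points, 3 per group) with the mean (bar) and SD (whisker); right, the share of each gene in that sum in each of the 12 libraries, in percent. The sum was 181 to 263 RPKM with control siRNA and LPS and at most 46.6 RPKM in the other 9 libraries, and Fcgr3 held its largest shares with SF3a1 siRNA without LPS (35.2 to 39%).

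The order of the members per length shifted with these changes. With control siRNA without LPS it ran Cd36 (138 RPKM), Msr1 (46.1), Fcgr1 (24.8), Clec4e (15.8), Clec7a (9.21), Fcgr3 (6.45), Fcgr2b (4) and Fcgr4 (1.72 RPKM). After LPS, Fcgr1 (176 ± 37.2 RPKM) stood level with Cd36 (172 ± 34.9 RPKM), and Msr1 (123 ± 17.5) and Clec4e (101 ± 21.6) differed by no more than their spread. With SF3a1 siRNA and LPS, Fcgr1 (19.1 ± 3.31 RPKM) came below Cd36 (212), Msr1 (104) and Clec4e (62.3 RPKM), and its neighbour Clec7a (18.7 ± 2.7 RPKM) was within its spread. Without LPS, SF3a1 siRNA put Fcgr3 (15.9 ± 1.74 RPKM) beside Fcgr1 (19.1 ± 3.97 RPKM). The lengths count every annotated exon, used or not, and the order depends on them. In Clec4e, 2 stretches annotated as retained intron span 1258 and 941 of its 4965 merged bases. They held 1.08 and 0.755% of its exon counts with control siRNA without LPS. The RPKM of Clec4e is lowered by such stretches, so its place against Fcgr1 and Msr1 rests on the annotation.

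Over the 12 libraries, log2 CPM of Fcgr1 correlated with that of Fcgr2b (Pearson r = 0.89) and Fcgr4 (0.82) and inversely with Fcgr3 (-0.72), and Msr1 correlated with Clec4e (0.86) and Clec7a (0.85). Such values are descriptions over 4 groups of 3 libraries that share an LPS and an siRNA exposure. The genes whose pattern was most like Fcgr1 were Tmed5, Apobec3 and Tmem219 (r = 0.97, 0.969 and 0.968), and those most like Fcgr4 were Snx10, Dclre1c and Rnf135 (0.947, 0.946 and 0.944). For Clec4e they were Mx2, Ifit1 and Ifih1 (0.994, 0.991 and 0.988), which are interferon-stimulated genes. For Msr1 they were Bcl2l1, Plaur and Mmp9 (0.982, 0.981 and 0.975), for Clec7a St3gal3, Tmco3 and Pstpip2 (0.967, 0.962 and 0.957) and for Cd36 Lmbrd1, Plscr1 and H2-M3 (0.925, 0.905 and 0.88). Fcgr2b was most like Ms4a6d, Milr1 and Gm13835 (0.938, 0.936 and 0.93), and Fcgr3 most like Plpp1, Ston1 and Tob1 (0.974, 0.962 and 0.951).

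Of the other Fc receptor genes, 4 of 9 were tested. Fcer1g, the signalling chain shared by the activating Fc receptors and Clec4e, measured 346, 305 and 366 CPM with control siRNA and 784, 514 and 639 CPM after LPS (log2 0.93, SE 0.17, adjusted p = 0.00128). With SF3a1 siRNA it measured 343, 311 and 294 CPM and, after LPS, 403, 452 and 339 CPM, which was not called (log2 0.33, adjusted p = 0.317). With LPS it was at 61.7% of control (log2 -0.7, SE 0.169, adjusted p = 0.00769). Trim21, a cytosolic receptor for antibody, rose with LPS under both siRNAs (log2 3.85 and 2.82) and with LPS was lower with SF3a1 siRNA (log2 -1.26, adjusted p = 0.00106). Fcrl1 fell with LPS with control siRNA (log2 -0.72, adjusted p = 0.0354), and with LPS the neonatal Fc receptor gene Fcgrt was higher with SF3a1 siRNA (log2 1.2, adjusted p = 0.0735). Without LPS, 0 of the 4 were called between the siRNAs, and 1 without replicate 1 of control siRNA without LPS. The interaction was called for 0 of them, and for 1 with the replicate block, with DESeq2, with no filter, without all replicate 1 libraries and without replicate 1 of control siRNA with LPS. The shares of all tested genes called in each comparison, given above for the 9 receptor genes, are the background for these 4 as well, and with the block the interaction was called higher for 6.54% and lower for 5.18% of all tested genes.

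Among 23 genes of ITAM and inhibitory (ITIM) signalling, all of which were tested, LPS with control siRNA raised 9 and lowered 4, where 13.8% and 18.3% of all tested genes were called higher and lower. The Src family kinase genes Src and Fgr and the paracaspase gene Malt1 rose most, by log2 5.63 (SE 0.758), 3.08 (SE 0.189) and 2.39 (SE 0.295). Fgr measured 52.2 to 68.7 CPM without and 432 to 581 CPM with LPS with control siRNA, and 53.9 to 63.9 and 169 to 242 CPM with SF3a1 siRNA. Inpp5d, encoding the phosphatase recruited by Fcgr2b, fell by 0.95 on the log2 scale (adjusted p = 0.00453), Lat2 by 0.82 and Vav1 by 0.57. With SF3a1 siRNA, LPS raised 6 and lowered 2, against 6.6% and 4.06% of all tested genes. With the replicate block it raised 7 and lowered 6, against 11.3% and 9.48%. Src (log2 3.47), Malt1 (2.26) and Fgr (1.89) rose most, and Inpp5d and Vav1 fell (by 1.09 and 0.58).

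SF3a1 siRNA without LPS raised 5 of the 23 signalling genes, among them Src (log2 3.6), the inhibitory adaptor gene Dok1 (0.8) and Syk (0.72), and lowered 1, Ptpn6 (log2 -0.88, adjusted p = 0.0283), which encodes the inhibitory phosphatase SHP-1. The background was 13.7% higher and 20.1% lower among all tested genes. With the replicate block 8 were higher and 4 lower, against 20.7% and 26.3%, and without replicate 2 or 3 of SF3a1 siRNA without LPS 3 were called in all. With LPS, 4 were higher and 7 lower, against 18.4% and 20.4%, so the count of higher genes was near that background. Src (log2 1.44), Lat2 (1.08) and Dok1 (0.98) had the largest called rises, and the Src family gene Fgr (-1.25, adjusted p = 0.000262), the adaptor gene Lcp2 (-1.05) and the kinase gene Prkcd (-0.96) the largest falls, while Ptpn6 stayed lower (log2 -0.91, adjusted p = 0.0216). Src varied widely, from 13.4 to 71.1 CPM with SF3a1 siRNA without LPS, against 1.02 to 6.09 CPM with control siRNA, and in each of the 4 groups its highest value was in replicate 1. The interaction was called lower for 4 of the 23, Lcp2 (-1.38), Fgr (-1.18), Prkcd (-0.93) and Lyn (-0.6), of which Lyn is named after its values were seen, where 1.94% of all tested genes were called lower. It was called for 2 genes of the list without replicate 2 or 3 of control siRNA without LPS, and likewise without any 1 library of SF3a1 siRNA, with or without LPS. Those 4 were called higher with LPS under each siRNA, in contrast to Fcgr1 and Fcgr4, which were called with control siRNA alone. The medians of the 23 genes were 0.2 and 0.17 for LPS with control and SF3a1 siRNA, and 0.14 and 0.04 for SF3a1 siRNA without and with LPS.

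**Figure D4:**
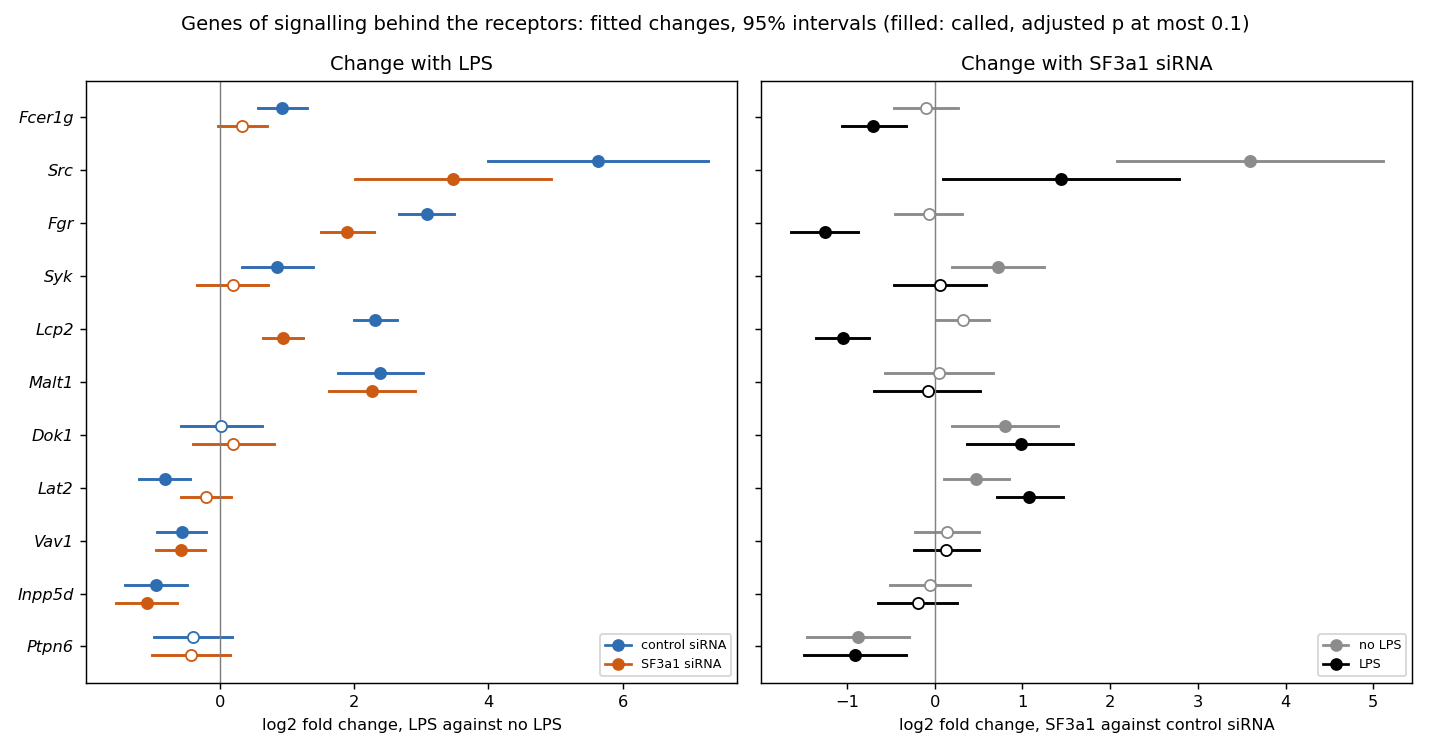
Fitted log2 fold changes (points) with 95% intervals (lines) of the Fc receptor chain gene Fcer1g and 10 genes of ITAM and ITIM signalling, for LPS against no LPS under each siRNA (left) and SF3a1 against control siRNA without and with LPS (right); filled points were called at an adjusted p of at most 0.1. Fgr and Lcp2 rose with LPS under both siRNAs, by 3.08 and 2.31 with control siRNA and by 1.89 and 0.94 with SF3a1 siRNA.

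Other scavenger receptors (9 of 15 tested) were called in both directions with LPS, with 2 higher and 3 lower with control siRNA and a median log2 change of -0.09. All tested genes were called at 13.8% higher and 18.3% lower, and without replicate 2 or 3 of control siRNA without LPS the called genes numbered 3 in place of 5. The chemokine and scavenger receptor gene Cxcl16 rose under both siRNAs (log2 0.76 and 0.96), and Scarf1 rose with control siRNA (1.46). Scarb1, the receptor for high-density lipoprotein, and Colec12 fell by 0.95 and 0.94 with control siRNA, and the lysosomal receptor gene Scarb2 fell under both (by 0.29 and 0.43). Colec12 also fell with SF3a1 siRNA (by 0.41), where LPS raised 1 and lowered 2 in all (background 6.6% and 4.06%), but called 1 without replicate 1 or 3 of SF3a1 siRNA without LPS or replicate 3 with LPS. Without LPS, SF3a1 siRNA raised Olr1 (log2 3.39), Scarb2 (0.49) and Colec12 (0.45) and lowered Cxcl16 (-0.69), against 13.7% and 20.1% of all tested genes. With LPS it raised 5 (background 18.4% and 20.4%), led by Olr1 (2.39), Colec12 (0.97) and Stab1 (0.84), and lowered Cxcl16 (-0.49), but without replicate 2 of control siRNA or replicate 3 of SF3a1 siRNA, both with LPS, 3 were higher and 0 lower. Olr1, a receptor for oxidised lipoprotein, averaged 17.1 ± 13.4, 70.7 ± 52.3, 177 ± 109 and 370 ± 263 CPM in the order control, control with LPS, SF3a1 and SF3a1 with LPS (SD, n = 3 each). The interaction was called for 0 of the 9, and with the replicate block for 2 higher and 2 lower, against 6.54% and 5.18% of all tested genes in that fit.

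Of 19 other C-type lectin genes, 14 were tested, and LPS with control siRNA raised 6 and lowered 2, against 13.8% and 18.3% of all tested genes. The 8 calls became 4 without replicate 1 of control siRNA without LPS and 5 without replicate 2 or 3 with LPS. Among the lectins averaging at least 1 CPM, Clec2d (log2 5.62), Clec4a1 (2.7) and Clec4n, which encodes Dectin-2 (2.16), rose most, and Clec10a fell (-1.72). Clec4n varied widely, at 5.16 to 52 CPM with LPS against 4.02 to 6.46 CPM without, and these groups overlapped. Below an average of 1 CPM, Clec1b (2.34) was called higher and Mrc2 (-2.28) lower. Clec1b had 10 reads with control siRNA without LPS and 0.0263 to 1.19 CPM with LPS, and these groups overlapped. It passed the filter through other groups, so its rise with SF3a1 siRNA without LPS is not independent of that filter. Mrc2 passed the filter through its groups without LPS, at 0.724 to 2.22 CPM, so its fall is likewise not independent of it. With SF3a1 siRNA, Clec2d (log2 3.94) was the 1 lectin called (background 6.6% higher and 4.06% lower), and 2 were called without all replicate 1 libraries. SF3a1 siRNA without LPS raised 3 and lowered 3, with Cd207 (1.09), the ITIM receptor gene Clec4a2 (1) and, below 1 CPM, Clec1b (2.33) higher and Clec4a1 (-1.85), Clec4a3 (-1.24) and the inhibitory receptor gene Clec12a (-1.09) lower. With LPS, 3 were higher, Clec10a (2.41), Cd207 (1.96) and Clec4a2 (1.08), and 3 lower, Clec4a1 (-3.5), Clec2d (-2.12) and Clec12a (-1.18). The counts of 3 of 14 lay close to the shares of all tested genes, 13.7% higher and 20.1% lower without LPS and 18.4% and 20.4% with LPS. With the replicate block 8 were higher and 3 lower without LPS, where 20.7% and 26.3% of all tested genes were called. Clec4a1, Clec4a2 and Clec4a3 are close relatives, and how reads were split among them was not tested. The interaction was called for 0 of the 14, and with the block for 1 higher and 1 lower (background 6.54% and 5.18%).

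Markers of osteoclasts, a cell type that RAW264.7 cells can form, were higher in sum with SF3a1 siRNA and with LPS in each replicate. Their summed level over 7 genes was 196, 39.5 and 127 CPM with control siRNA and 1050, 227 and 577 CPM with SF3a1 siRNA, and with LPS 476, 125 and 253 CPM against 1550, 359 and 795 CPM. Acp5 was the most abundant in 11 of the 12 libraries and Mmp9 in the other, and Calcr, the calcitonin receptor gene, was at 0 in 10 of the 12. With LPS, Atp6v0d2 alone of the 6 tested markers was lower on average under either siRNA. It averaged 23.8 without and 11.1 CPM with LPS with control siRNA, and 146 and 99.2 CPM with SF3a1 siRNA. With control siRNA, Acp5 averaged 68.8 and 163 CPM, Mmp9 0.28 and 66.1 CPM and Ctsk 2.14 and 2.74 CPM. SF3a1 siRNA raised 4 of the 6 tested without LPS (Acp5, Ctsk, Atp6v0d2 and Mmp9) and 3 with LPS (Ctsk, Ocstamp and Atp6v0d2), where 13.7% and 18.4% of all tested genes were called higher. Without LPS the count was 2 without replicate 2 of control siRNA or replicate 1 of SF3a1 siRNA. With LPS it was 5 with the replicate block (background 24.6% higher), with no filter, with only the groups compared, without all replicate 1 libraries, and without replicate 1 of control siRNA with LPS, replicate 1 of SF3a1 siRNA without LPS or replicate 2 of SF3a1 siRNA with LPS. LPS raised 1 of the 6 with control siRNA and 2 with SF3a1 siRNA, where 13.8% and 6.6% of all tested genes were called higher. With the replicate block 4 and 5 were called for LPS, 1 of them lower under each siRNA. In the summed level, replicate 1 was highest and replicate 2 lowest in every group. Between groups, the osteoclast sums were higher with SF3a1 siRNA without LPS, as were Msr1, Fcgr3 and Fcgr4. They were also higher with LPS, as were most tested receptor genes with control siRNA. Among the libraries of SF3a1 siRNA without LPS the order differed by gene. Msr1 was highest in replicate 1 (440 CPM), Fcgr3 lowest there (24.2 CPM) and Fcgr4 lowest in replicate 2 (2.95 CPM). In each replicate the sum was highest with SF3a1 siRNA and LPS. There Fcgr1 and Fcgr4 stood at 10.9% and 18.8% of control siRNA with LPS. The part of the osteoclast markers in the receptor results was not tested. Without the 4 replicate 1 libraries, a fit added after the data were seen, SF3a1 siRNA raised 3 receptor genes without LPS and lowered 1, Clec4e (log2 -0.61, adjusted p = 0.0351). The osteoclast sums were also higher with SF3a1 siRNA in replicates 2 and 3, so that fit does not separate the markers from the receptor genes. The counts of receptor genes called in that fit were 8 for LPS with control siRNA, 4 for LPS with SF3a1 siRNA, 5 for SF3a1 siRNA with LPS and 2 for the interaction. Of all genes, that fit called 1012 for the interaction, against 520 with all libraries. In the other comparisons its count of all genes stayed within 1.5 times that with all libraries.

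SF3a1 is part of the SF3a complex, which helps the U2 small nuclear ribonucleoprotein recognise the branch point, so exon usage was tested as well, in the 11 libraries with exon bin counts (control siRNA with LPS had 2). An exon bin is a piece of a gene's exons that is used as a whole by each transcript. In all, 153624 bins were tested, of which 0.0801% and 0.0254% were called for LPS with control and SF3a1 siRNA, and 0.626% and 0.492% for SF3a1 siRNA without and with LPS. The members had 87 tested bins in 8 genes, all but Marco and Mrc1. In edgeR's test, called bins numbered 0, 0, 1 and 0 in these comparisons, and bins at an unadjusted p under 0.05 numbered 4, 3, 6 and 7, against 1.97%, 1.29%, 3.39% and 3.99% of all tested bins. With the replicate block 0, 0, 4 and 2 were called, against 0.186%, 0.0683%, 1.38% and 1.17% of all bins, and limma's diffSplice called 0 in each.

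The bin called was number 016 of the 19 of Cd36, counted from the lowest coordinate and so the fourth from the 5′ end. It held 0.574, 1.33 and 1.06% of the Cd36 bin counts with control siRNA and 0.22, 0.349 and 0.354% with SF3a1 siRNA, with no overlap (log2 change in usage -1.21, adjusted p = 0.00486). With LPS it held 0.593 and 1.01% in the 2 control libraries and 0.119, 0.362 and 0.532% with SF3a1 siRNA, which was not called (log2 -0.87, adjusted p = 0.287) but was with the replicate block (log2 -1.14, adjusted p = 0.000321). The call without LPS was lost without replicate 2 of control siRNA (adjusted p = 0.166) or replicate 1 of SF3a1 siRNA (adjusted p = 0.119). Its counts were few, 525 and 145 reads over 3 libraries each.

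**Figure D5:**
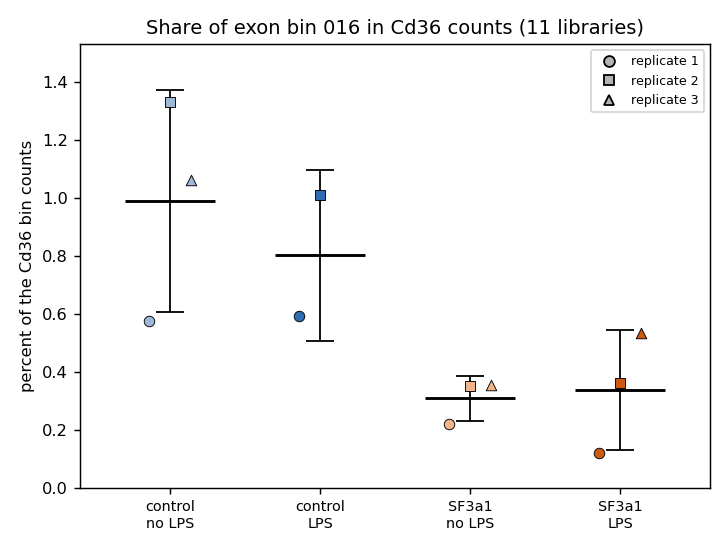
Share of Cd36 exon bin counts that fell in bin 016, in percent, in the 11 libraries with exon counts; points are replicates, bars means and whiskers SD (n = 2 for control siRNA with LPS, 3 for the others). Without LPS the 3 control siRNA libraries sat at 0.574 to 1.33% and the 3 SF3a1 siRNA libraries at 0.22 to 0.354%.

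With the replicate block, 3 further bins were called for SF3a1 siRNA without LPS. Clec4e bin 010 (chr6:123286432-123286518), a coding stretch of 87 bases that is an exon of its own in 1 annotated transcript, part of a longer exon with retained intron sequence in 3 and spliced out of 2, held 4.65% ± 1.16 of the Clec4e bin counts with control siRNA and 2.2% ± 0.896 with SF3a1 siRNA (blocked log2 -0.81, adjusted p = 0.0156, and 0.309 without the block). Msr1 bin 011 held 1.13% ± 0.378 and 0.535% ± 0.0908 (blocked log2 -0.74, adjusted p = 0.00404, and 0.281 without), and Clec7a bin 007 held 0.165% ± 0.151 and 1.46% ± 0.874, on 6 and 36 reads (blocked log2 1.97, adjusted p = 0.0206, and 0.165 without). With LPS, Clec7a bin 005 was called with the block, at 7.94% ± 2.03 (n = 2) with control siRNA and 3.45% ± 0.314 (n = 3) with SF3a1 siRNA (blocked log2 -0.89, edgeR adjusted p = 0.0242, and 0.488 without). Bins of Fcgr1 (6), Fcgr4 (5), Fcgr3 (8) and Fcgr2b (15) were tested and 0 of them was called in any of the 4 comparisons, with or without the block. Bins were placed on the genome only where those rebuilt from GENCODE vM21 matched the count files in number, which held for Clec4e, Fcgr3 and Fcgr4, so the alternative exons of Clec7a, Fcgr2b and Msr1 and the bins of Cd36 have no coordinates here.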

How the data were processed

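The authors mapped single-end Ion Proton reads of at least 30 nucleotides to mm10 with GSNAP and kept those that mapped uniquely. The gene counts deposited are unnormalized reads per Ensembl gene from htseq-count (HTSeq 0.5.4p per the submitters' processing notes), and the deposited exon counts are unnormalized reads per exon bin. Exon bins were analysed in 11 libraries, without replicate 3 of the LPS-exposed control siRNA cells. Reads outside genes were left out of library sizes. Groups came from the sample labels.

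Gene counts of all 12 libraries were fitted in R 4.3.3 with edgeR 4.0.16 (TMM scaling, filterByExpr, 1 mean per group, quasi-likelihood test, Benjamini-Hochberg over all tested genes, threshold 0.1). Exon bins were fitted likewise and tested with diffSpliceDGE. CPM and RPKM use TMM-scaled library sizes and GENCODE vM21 exon lengths. limma 3.58.1 and DESeq2 1.42.0 served as alternatives. The steps were tested on simulated data. The 95% intervals come from the edgeR fits and include the spread between replicates, while the limit of 3 counts covers counting error only.

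The receptor genes and all lists were chosen with earlier results of these data known. Some genes of the lists are not reported here and were left out of the counts. From the lists of related genes, those named are the 3 called genes with the largest change in each direction of each comparison at a mean of at least 1 CPM, with Fcer1g, Inpp5d and Ptpn6 always. Outside that rule, Clec1b and Mrc2, below 1 CPM, and Lyn were also named. Genes of like pattern are the 3 with the highest Pearson r over log2 CPM among those averaging 10 CPM or more.

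Replicate numbers, which the labels give, pair the samples: deviations from the group means correlated at 0.14 to 0.66 in all 18 pairs of the same number (median 0.43) and at -0.59 to 0.42 in the 36 others. The study's design text calls the replicates biological.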

Additional observations from a re-analysis of the deposited data

Results flagged for a closer look

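The SF3a1 siRNA effect differed between cells with and without LPS for 3 of the receptor genes, by the interaction in edgeR's fit. For Fcgr1 the difference was log2 -2.83 (adjusted p = 0.00149), for Fcgr4 -3.79 (adjusted p = 0.00346) and for Msr1 -0.75 (adjusted p = 0.09). The Msr1 call was lost in 11 of the 12 fits without 1 library, with no filter (adjusted p = 0.189) and without all replicate 1 libraries (adjusted p = 0.158). Among the related genes it was called for the adaptor gene Lcp2 (-1.38, adjusted p = 0.00489), the Src family kinase genes Fgr (-1.18, adjusted p = 0.031) and Lyn (-0.6, adjusted p = 0.0759), the kinase gene Prkcd (-0.93, adjusted p = 0.0811) and the osteoclast marker Mmp9 (-3.48, adjusted p = 0.0542). The call of Mmp9 was lost in 5 of the 12 fits without 1 library, those without any 1 of the 3 libraries of control siRNA without LPS, without replicate 3 of SF3a1 siRNA without LPS or without replicate 3 of SF3a1 siRNA with LPS. The signalling genes called numbered 2 in place of 4 in 8 of the 12 fits without 1 library. All 8 differences were negative, and of the 520 genes called for the interaction overall 290 were.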

How the results depend on the processing

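The number of receptor genes called stayed within 1.5 times its value in all 5 gene comparisons under every alternative: other size factors, DESeq2, 2 filters, the replicate block, only the groups compared (not run for the interaction, which needs all 4 groups), each library left out and all replicate 1 libraries left out (chosen after seeing the data). Over the fits without 1 library it ranged from 6 to 8 (8 with all), 3 to 4 (4), 3 in each (3), 4 to 5 (5) and 2 to 3 (3) in the order LPS with control siRNA, LPS with SF3a1 siRNA, SF3a1 siRNA without LPS, SF3a1 siRNA with LPS and interaction. Of the values of single receptor genes under these alternatives, 777 kept their direction and side of the threshold, 27 lost the call, 5 gained one and 30 changed sign, all of them values that were not called in either fit.

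For the log2 values that changed sign, with libraries left out (1 library, or all of replicate 1), the LPS change with SF3a1 siRNA ran from -0.2 to 0.14 for Fcgr1 and from -0.02 to 0.38 for Sf3a1, and the SF3a1 siRNA change of Mrc1 from -1.61 to 1.61 without LPS and from -0.25 to 0.3 with LPS. The interaction ran from -0.22 to 0.12 for Cd36, from -0.53 to 0.2 for Fcgr3 and from -1.31 to 1.58 for Mrc1. The LPS change of Cd36 bin 016 ran from -0.52 to 0.02 with control siRNA and from -0.33 to 0.43 with SF3a1 siRNA. Fcgr1 with LPS and SF3a1 siRNA stood at -0.01 with other size factors and with DESeq2. With the replicate block Mrc1 stood at -0.05 for SF3a1 siRNA without LPS and at 0.01 for the interaction, and Cd36 bin 016 at -0.05 for LPS with SF3a1 siRNA (-0.13 with diffSplice). With only the groups compared, Mrc1 stood at 0.01 for SF3a1 siRNA with LPS.

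Member exon bins called for SF3a1 siRNA without LPS numbered 1, but 0 with limma's diffSplice (Cd36 bin 016 at an adjusted p of 0.1, just above the threshold) and 4 with the replicate block; with LPS they numbered 0, and 2 with the block. Without 1 library they ranged from 0 to 1 in both comparisons, and the lone library of control siRNA with LPS left by such a fit is assumed to vary like the other groups. The cause was not tested.

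Of all genes, the interaction called 520, but 966 with DESeq2, 930 without a filter, 1756 with the replicate block, 1012 without replicate 1 and 273 to 711 without 1 library. LPS with SF3a1 siRNA called 1598, but 3115 with the block and 1050 to 2005 without 1 library. Bins called numbered 123, 39, 961 and 756 and, with the block, 285, 105, 2113 and 1793. For LPS with SF3a1 siRNA, diffSplice called 21. Without 1 library they were 49 to 158, 26 to 42, 527 to 1131 and 101 to 888. The block changed no other call of a receptor gene than those given beside the results. Depth limits Marco, Mrc1 and bins of few reads most.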

Other observations

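Macrophage and dendritic cell markers also moved with LPS. With control siRNA, LPS raised 5 of 9 macrophage markers (Adgre1, Itgam, Spi1, Mertk and Cd14) and lowered 2 (Csf1r and C1qa), where 13.8% and 18.3% of all tested genes were called higher and lower. SF3a1 siRNA without LPS raised 3 (Lyz2, Spi1 and Mertk) and lowered 0, against 13.7% and 20.1% of all tested genes, and with LPS it raised 3 (Csf1r, Spi1 and Mertk) and lowered 1 (Adgre1, log2 -0.71, adjusted p = 0.0765), against 18.4% and 20.4%. Mertk passed the filter through the SF3a1 siRNA groups, at 0.878 to 2.6 CPM, against at most 0.561 CPM with control siRNA. C1qa passed it through control siRNA without LPS, at 0.527 to 0.67 CPM, against at most 0.446 CPM elsewhere. The rises of Mertk with SF3a1 siRNA and the fall of C1qa with LPS are therefore not independent of that filter. Csf1r, the receptor for the macrophage growth factor, fell by 1.04 on the log2 scale with control siRNA (adjusted p = 0.000117) and by 0.55 with SF3a1 siRNA (adjusted p = 0.0278), and with LPS it was higher with SF3a1 siRNA (log2 0.69, adjusted p = 0.00248). Spi1, which encodes PU.1, was higher with SF3a1 siRNA both without LPS (log2 0.59, adjusted p = 0.0132) and with LPS (log2 0.61, adjusted p = 0.0101). Of 7 dendritic cell markers 3 were tested. With control siRNA, Itgax, the most abundant of them in every library, rose with LPS (log2 2.74, adjusted p = 0.000822), while Zbtb46 fell (log2 -1.13, adjusted p = 0.0659). Xcr1 was also called higher (log2 4.56, adjusted p = 0.00161) but averaged below 1 CPM over all libraries. It passed the filter through control siRNA with LPS, at 0.874 to 1.4 CPM, against at most 0.0687 CPM without LPS. Its rise is therefore not independent of that filter.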
